A study of Mus musculus with 8 samples.

Results

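DOT1L is the enzyme that methylates lysine 79 of histone H3, a mark laid down along the bodies of transcribed genes. Its partners AF9, ENL, AF10 and AF17, encoded by Mllt3, Mllt1, Mllt10 and Mllt6, hold it on chromatin or tune its activity. AF9 and ENL also bind AFF1 and AFF4, the scaffolds of the super elongation complex, which brings the kinase P-TEFb and the ELL and EAF factors to paused RNA polymerase II. Six2 marks the nephron progenitors of the embryonic kidney, the self-renewing cells under the capsule from which nephrons form.

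The 10 genes of these complexes listed next were examined in kidneys that the study's title describes as knocked out for Dot1 in Six2-positive progenitors: Dot1l, Mllt1, Mllt3, Mllt6, Mllt10, Aff1, Aff4, Ell, Eaf1 and Eaf2. They were chosen by name, and every array probe whose RefSeq accession belongs to one of them was taken. That gave 12 probes for the 10 genes, among 27509 probes for 20887 named genes on the array. Of the 12 probes, 10 passed the filter on dim signals, and these covered 9 of the 10 genes. Aff1 and Eaf2 had 2 probes each and the other genes 1.

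Each sample was a pair of whole kidneys from a C57BL/6 embryo at embryonic day 16.5. Kidneys with the genotype given as control (WT, n = 4) were compared with kidneys given as DOT1-null in the nephron progenitors (KO, n = 4), and the gene that the labels call DOT1 is taken here to be Dot1l. The floxed allele and the Cre line are not given in the sources used here. Sample RNA carried the red dye on a 2-colour array, WT1 RNA carried the green dye on all 8 arrays, and every value below is the log2 ratio of red over green unless a red or green signal is named.

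The arrays were not equal in quality or in sex. Both replicates 1 carried a high background: the median red signal of the negative-control spots was 1361 units on WT1 and 478.2 on KO1, against 58 to 61 on the others, which are called the 6 arrays of low background below. By 2 Y-linked probes all 4 KO embryos and WT2 were male and the other 3 WT embryos female, and all WT arrays lay in one row of the slide and all KO arrays in the other, so row and group cannot be told apart. All 10 kidney marker genes were measured well enough to be tested, whereas of 5 probes for adrenal markers only 1, for Th, was. Beside the members, other cell type markers differed between the groups: 1 of 6 progenitor marker probes passed, that of Cited1, which fell by 2.72 on the log2 scale in KO, 4 of 6 stromal marker probes and 4 of 10 macrophage marker probes rose (limma adjusted p under 0.05), and the medians of these 3 lists were -0.20, 0.53 and 0.36. Crym at 0.23 and Eya1 at 0.21 were the progenitor marker probes with positive differences, and neither passed. Of the 12 kidney marker probes only that of Wt1 passed, at -0.40 (limma adjusted p = 0.0413). All 8 proximal tubule probes and all 3 tested erythroid probes were higher in KO. Their medians were 0.38 and 0.40, and none of them passed. In whole kidneys, fewer cells of a type and less RNA per cell cannot be told apart.

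None of the 10 tested member probes differed between KO and WT by limma with Benjamini-Hochberg adjustment over all 18145 tested probes. Their adjusted p values ran from 0.339 to 0.927, and 1 of the 10 had an unadjusted p under 0.05. Across all tested probes 278 were called, which is 1.53%, and 2394 had an unadjusted p under 0.05, which is 13.2%. The software's own ratios called 103, which is 0.568%, and of these 58.3% were higher in KO, against 72.7% in the main comparison, and the replicate block called 550, which is 3.03%. In no member probe did the 4 KO arrays lie clear of the 4 WT arrays, an arrangement that 8.54% of all tested probes showed. The members' differences lay between -0.13 and 0.24 on the log2 scale.

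Most of the members gave a clear signal, as the plot of signal over negative controls shows. On the 6 arrays of low background, the red signal of Mllt6 was 74.7 to 173.6 times the negative-control median, that of Eaf2 at its brighter probe 82.1 to 136.5 times, and that of Ell 36.7 to 69.6 times. Dot1l lay at 6.47 to 13.8 times and Mllt3 at 3.71 to 6.96 times the controls. These multiples show how far each probe rose above background and do not rank the genes, because probes differ in how brightly they bind.

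**Figure D1:**
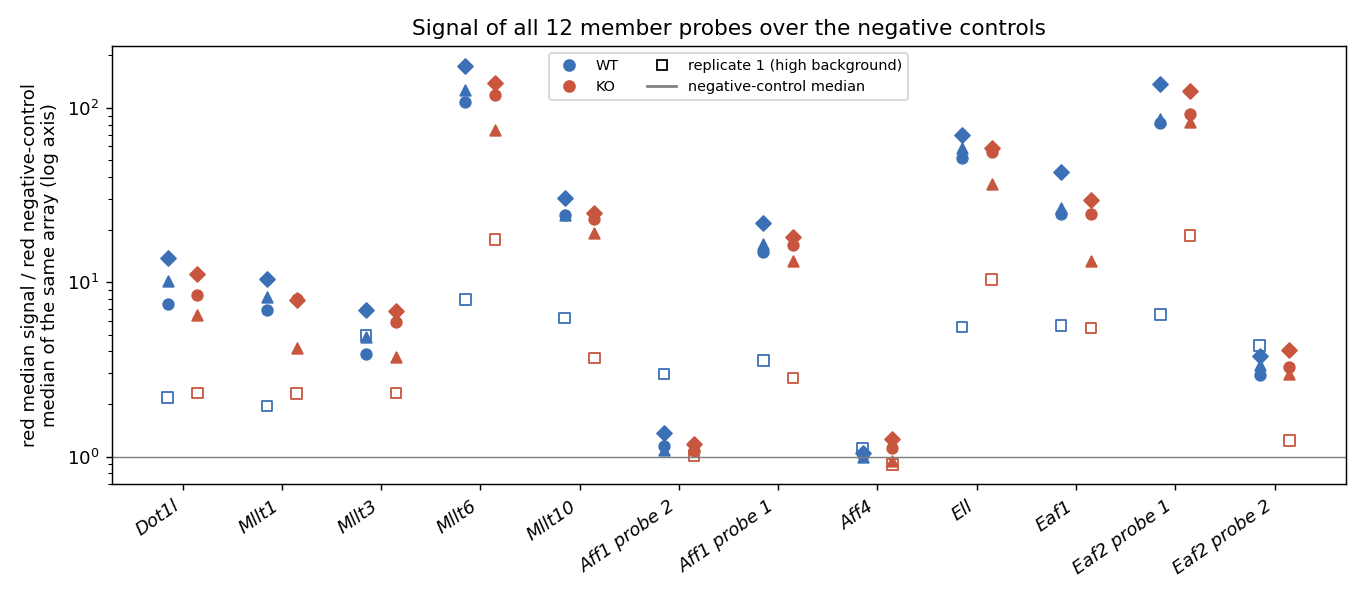
Red median signal of each of the 12 member probes divided by the red negative-control median of the same array, on a log axis, with 1 point per array, WT in blue and KO in red. The Aff4 probe and the second Aff1 probe sit near 1 on the arrays of low background, and the open squares of WT1 and KO1 are compressed toward 1 for most of the other probes.

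The super elongation complex scaffold Aff4 could not be assessed. Its probe was not well above background on any of the 8 arrays, with a red signal of 0.899 to 1.25 times the negative controls, and no fold is given. The second Aff1 probe was well above background on 1 array only, WT1, and lay at 1.08 to 1.36 times the controls on the 6 arrays of low background. Neither probe was tested in the main comparison. Both entered the alternative without the filter on dim signals, where no member probe was called.

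For Dot1l, the targeted gene, no difference between the groups was detected. Its log2 ratios were -0.23, -0.21, -0.09 and -0.09 in WT1 to WT4, and -0.13, -0.04, -0.21 and -0.11 in KO1 to KO4. The KO values lay within the span of the WT values apart from KO2, the highest of the 8 arrays, and the groups overlapped. KO minus WT was 0.03 ± 0.08 (SE, n = 4 per group; limma adjusted p = 0.927), with a 95% interval of -0.15 to 0.21, or 0.902- to 1.16-fold. A two-sided exact permutation test over the 70 splits gave p = 0.657, where 0.0286 is the smallest p it can give.

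The Dot1l values were among the tightest on the array. The SD within groups was 0.073, and 5.72% of tested probes had a smaller one. At that spread a difference of 0.36, or 1.29-fold, would have been needed to pass the adjusted threshold, and the 95% interval ended short of it on both sides. The position of the probe within the gene, and so whether it covers the deleted exons, was not analysed here, and the kidneys also held cells outside the Six2 lineage. The Dot1l values therefore do not check the labels. The probe was well above background on 7 of 8 arrays, the exception being WT1. Six2 itself differed by -0.21 ± 0.12 and -0.20 ± 0.10 at its 2 probes (SE; limma adjusted p = 0.47 and 0.458).

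A ratio of 0 is no reference point for single probes. On the WT1 array both dyes carried WT1 RNA, yet 9 of the 10 member probes read below 0 there, down to -0.42 for Aff1. WT1 was also the array of highest background, and the part of a dye offset in these readings was not tested. The share of all tested probes below 0 on WT1 is not given here. Dot1l was below 0 on all 8 arrays. Only the difference between the groups is read, in which a constant dye offset of a probe drops out. A deviation of the WT1 array alone does not drop out. Without WT1 the difference went from 0.09 to 0.01 for Ell, from 0.07 to -0.02 for Mllt6 and from 0.19 to 0.24 for Mllt3.

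**Figure D2:**
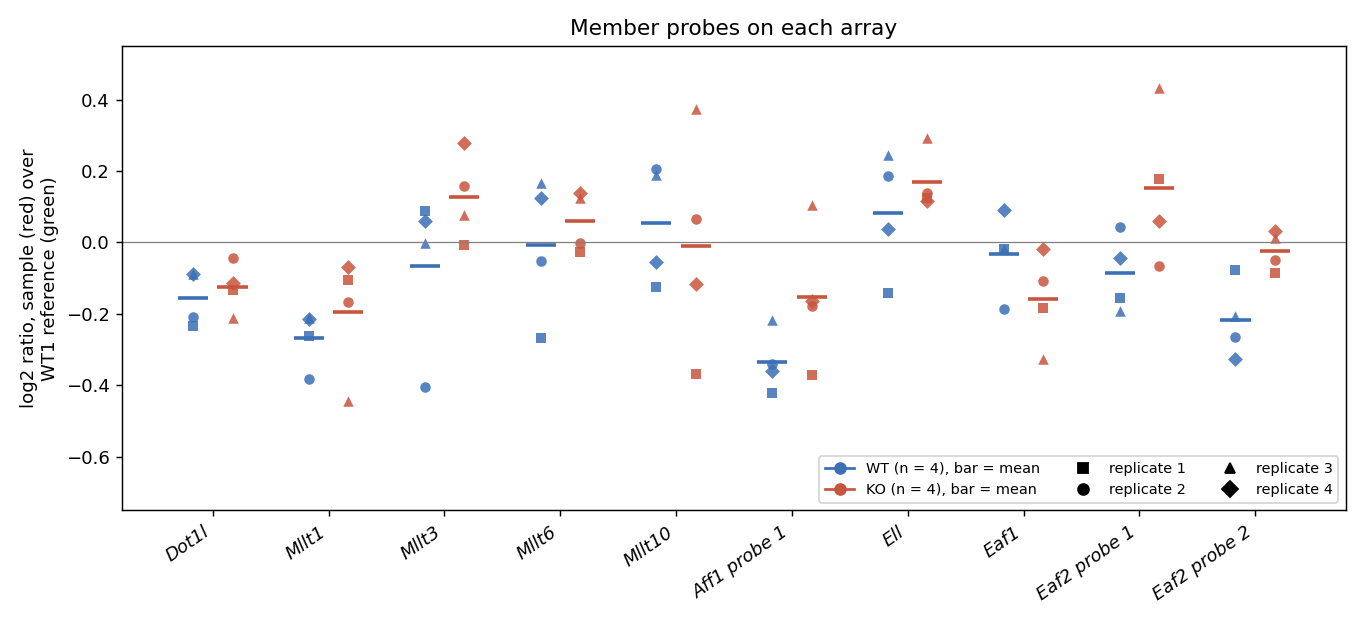
Log2 ratio of each sample over the WT1 reference for the 10 tested member probes, with a symbol for each replicate number, WT in blue, KO in red and a bar at each group mean (n = 4 per group). WT and KO points overlap for every probe, and the KO3 triangle is the KO point farthest from the others for 7 of the 10 probes.

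The AF10 and AF17 genes came next. AF10, encoded by Mllt10, binds DOT1L directly and promotes its methylation of histone H3, and AF17, encoded by Mllt6, is its close relative and binds DOT1L as well. Mllt10 read -0.12, 0.21, 0.19 and -0.05 in WT1 to WT4 and -0.37, 0.07, 0.37 and -0.11 in KO1 to KO4. The KO arrays enclosed the whole WT range, with KO1 the lowest and KO3 the highest of all 8. The difference was -0.06 ± 0.14 (SE, n = 4 per group; limma adjusted p = 0.904), with a 95% interval of -0.38 to 0.25, the widest of the 10. Its SD within groups, 0.25, exceeded that of 91.8% of tested probes. Without KO1 the difference was 0.05.

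Mllt6 read -0.27, -0.05, 0.17 and 0.12 in WT1 to WT4 and -0.03, 0.00, 0.13 and 0.14 in KO1 to KO4. All KO values fell inside the WT range. The difference was 0.07 ± 0.10 (SE, n = 4 per group; limma adjusted p = 0.854), with a 95% interval of -0.16 to 0.29. WT1 was the low WT value, and without it the difference was -0.02.

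AF9 and ENL carry a YEATS domain that reads acylated lysines on histones, and each can bind either DOT1L or an AFF scaffold. Mllt3, which encodes AF9, read 0.09, -0.41, 0.00 and 0.06 in WT1 to WT4 and -0.01, 0.16, 0.08 and 0.28 in KO1 to KO4. WT2 stood far below the other 7 arrays, while KO2 and KO4 were the only values above every WT array. The difference was 0.19 ± 0.12 (SE, n = 4 per group; limma adjusted p = 0.53), with a 95% interval of -0.06 to 0.44. Without WT2 it was 0.08, and it did not pass there either (adjusted p = 0.826).

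WT2 was also the only male WT embryo, so a model with sex as a term sets the KO arrays against WT2 alone. In that model Mllt3 differed by 0.53 ± 0.14 (SE; limma adjusted p = 0.227), the largest difference and the smallest adjusted p of any member there. Against that single array no effect of sex can be told apart from the deviation of WT2 itself. For 5 of the 10 member probes (Mllt1, Mllt3, Mllt10, Eaf1 and Eaf2 probe 1), WT2 lay outside the range of the 3 female WT arrays, as it did for 51.1% of the 18114 tested probes with a value on every array.

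Mllt1, which encodes ENL, read -0.26, -0.38, -0.21 and -0.22 in WT1 to WT4 and -0.10, -0.17, -0.44 and -0.07 in KO1 to KO4. In 3 KO arrays the value was above every WT array, and in KO3 it was below every one. The difference was 0.07 ± 0.10 (SE, n = 4 per group; limma adjusted p = 0.82), with a 95% interval of -0.14 to 0.29. Without KO3 it was 0.15 and did not pass (adjusted p = 0.556). Mllt1, like Dot1l, was not well above background on WT1.

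Of the elongation side, Aff1 encodes the AF4 scaffold, which binds P-TEFb, AF9 or ENL, and ELL. Its brighter probe read -0.42, -0.34, -0.22 and -0.36 in WT1 to WT4 and -0.37, -0.18, 0.11 and -0.16 in KO1 to KO4. KO2, KO3 and KO4 lay above every WT array and KO1 among them. The difference was 0.18 ± 0.10 (SE, n = 4 per group; limma adjusted p = 0.501), with a 95% interval of -0.04 to 0.41. Between same-numbered arrays the KO value was higher in 4 of 4 pairs for this 1 of the 10 member probes, and for 15.9% of the tested probes with a value on every array. Without KO3 the difference was 0.10.

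Ell encodes the elongation factor that suppresses pausing of RNA polymerase II, and EAF1 and EAF2 are small proteins that bind and stimulate it. Ell read -0.14, 0.19, 0.25 and 0.04 in WT1 to WT4 and 0.13, 0.14, 0.29 and 0.12 in KO1 to KO4. KO1, KO2 and KO4 lay close together inside the WT range, and only KO3 exceeded every WT array. The difference was 0.09 ± 0.10 (SE, n = 4 per group; limma adjusted p = 0.777), with a 95% interval of -0.13 to 0.30. It was 0.01 without WT1, 0.05 without KO3 and 0.14 without WT3. With the red channel alone it was 0.81 ± 0.74 (SE; limma adjusted p = 0.931), and in that channel without WT1 and KO1 it was -0.0065.

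Eaf1 read -0.02, -0.19, -0.02 and 0.09 in WT1 to WT4 and -0.18, -0.11, -0.32 and -0.02 in KO1 to KO4. KO3 was the lowest array and WT4 the highest, and the other 6 values were interleaved. The difference was -0.13 ± 0.10 (SE, n = 4 per group; limma adjusted p = 0.641), with a 95% interval of -0.33 to 0.08. It was -0.07 without KO3 and -0.08 without WT4.

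Eaf2 had the lowest adjusted p values of the members in the main comparison, at both of its probes, and neither passed. The log2 ratios of the probes correlated with each other at only 0.44 over the 8 arrays. The brighter probe read -0.16, 0.04, -0.19 and -0.04 in WT1 to WT4 and 0.18, -0.06, 0.43 and 0.06 in KO1 to KO4. KO1, KO3 and KO4 exceeded every WT array and KO2 did not. The difference was 0.24 ± 0.11 (SE, n = 4 per group; limma adjusted p = 0.382), or 1.18-fold, with a 95% interval of -0.0015 to 0.48. Without KO3 it was 0.14, and with sex as a term 0.11.

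The dimmer Eaf2 probe, at 2.92 to 4.09 times the negative controls on the 6 arrays of low background, read -0.08, -0.26, -0.21 and -0.33 in WT1 to WT4 and -0.09, -0.05, 0.01 and 0.03 in KO1 to KO4. WT1, at -0.08, was the only WT array that reached the KO range, and the probe was not well above background on KO1. The difference was 0.20 ± 0.08 (SE, n = 4 per group; limma adjusted p = 0.339), or 1.15-fold, with a 95% interval of 0.01 to 0.38. Without WT1 and KO1 the difference was 0.26 ± 0.08 (SE, n = 3 per group; limma adjusted p = 0.202). With the red channel alone over all 8 arrays it was -0.07, and without WT1 and KO1 in that channel 0.12.

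**Figure D3:**
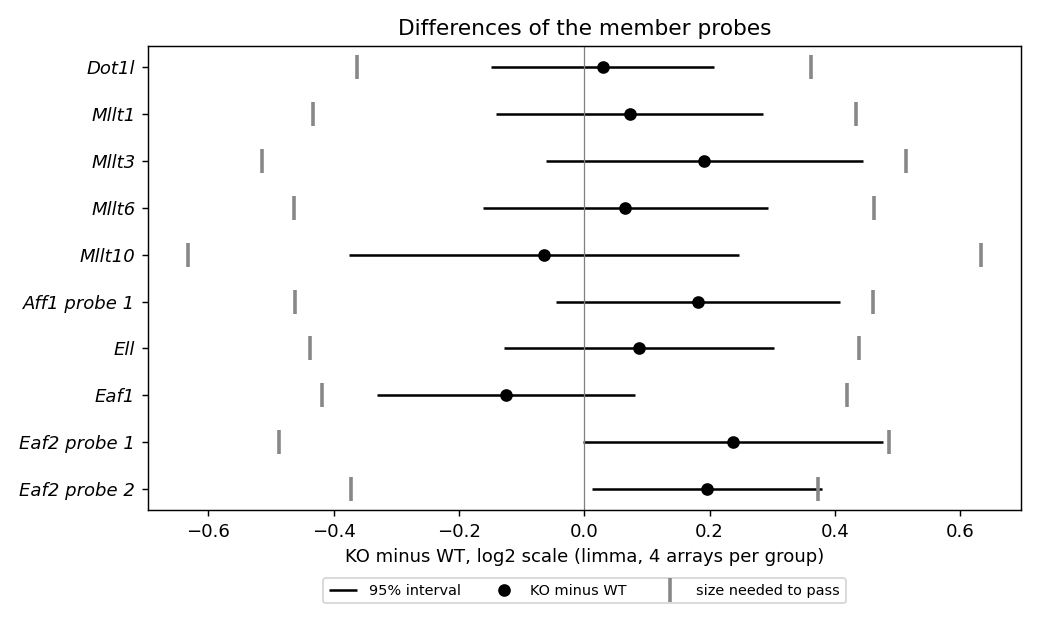
KO minus WT on the log2 scale for the 10 tested member probes, with 95% intervals from limma (4 arrays per group) and grey ticks at the size that a probe of the same error would have needed to pass, the smallest moderated t among called probes times its SE. Every point lies inside its ticks, and the interval excludes 0 only for Eaf2 probe 2.

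The measurements were as precise for the members as for other probes. The median SE was 0.102 for the members and 0.102 for all tested probes, and differences of 1.29- to 1.55-fold would have been needed to pass. The smallest difference among the 278 called probes was 0.35, larger than the difference of any member. An observed difference of less than 1.29-fold would thus not have been called for any of them. These are cutoffs on the estimate, and they do not say how large a true change would have been detected.

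The green channel gives a rough measure of technical spread, since it held the same WT1 RNA on all arrays. Over the 6 arrays of low background the SD of the green log2 signal was 0.038 for Ell, 0.042 for Mllt6 and 0.056 for Mllt3, against SDs of the ratio within groups of 0.10, 0.098 and 0.19 over the same arrays. For Dot1l the green SD was 0.11 and the ratio SD 0.077, and for Eaf2 probe 2 they were 0.059 and 0.052. For the other 8 member probes, those 3 included, the SD of the ratio exceeded that of the reference signal. These SDs differ in kind. The green SD was taken across both groups in a single channel, quantile normalized between arrays. The ratio SD was pooled within groups from loess ratios. The green SD is therefore no floor for the ratio SD.

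KO3 was often the outlying KO array, over all tested probes as well as in the members. KO3 was the KO array farthest from the mean of the other 3 for 7 of the 10 member probes. The share was 40.3% of the tested probes with a value on every array, more than for any other KO array. KO3 thus stood apart across the data and not in the members alone. Of these 7 probes, KO3 was the highest KO array for Mllt10, Aff1, Ell and Eaf2 probe 1 and the lowest for Dot1l, Mllt1 and Eaf1. KO3 was also the highest KO array for proximal tubule genes: the phosphate transporter Slc34a1 read 1.14 and 0.95 there at its 2 probes and at most 0.28 on any other KO array. The part of such markers in the member values was not tested.

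The other genes of the elongation pathway were read from 5 lists with 41 genes in all, of which 39 had a probe and 37 were tested, over 50 probes. None of the 50 probes was called by limma (1.53% of all tested probes were). The unadjusted limma p was under 0.05 for 3 of them, against 13.2% of all tested probes. In 1 the groups did not overlap, against 8.54% of all tested probes. The 50 probes had a median difference of 0.0034, against 0.02 over all tested probes and 0.08 over the members. Of the 50, 52% were higher in KO, against 56.1% of all tested probes and 8 of 10 member probes. With 1 array left out the member median ran from 0.04 (without WT1) to 0.13 (without WT3), and without WT1 and KO1 it was 0.04. Since the median of the members is a description of genes chosen by name, it carries no test.

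P-TEFb, the kinase that releases paused polymerase, and its regulators had a median of -0.04 over 12 probes. Cdk9, its catalytic subunit, gave -0.23 ± 0.09 (SE; limma adjusted p = 0.31) at 1 probe, where all KO arrays lay below all WT arrays, but 0.0017 and -0.10 at the other 2. Larp7, a subunit of the 7SK particle that holds P-TEFb inactive, gave -0.24 ± 0.11 and -0.18 ± 0.10 at its 2 probes (SE; limma adjusted p = 0.353 and 0.508). Of the further super and little elongation complex genes, Ell2 differed by 0.15 ± 0.12 and Ice1 by -0.03 ± 0.08 (SE; limma adjusted p = 0.657 and 0.92).

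Among the pausing factors of DSIF and NELF, Nelfa differed by 0.20 ± 0.13 and Nelfe by -0.11 ± 0.09 (SE; limma adjusted p = 0.563 and 0.652). In the PAF1 complex, which travels with the polymerase, the lowest p values were those of Leo1 at -0.14 ± 0.09 and Wdr61 at 0.17 ± 0.11 (SE; limma adjusted p = 0.546 and 0.581). In the last list, Rnf20, a ubiquitin ligase for histone H2B, whose ubiquitylated form stimulates DOT1L, had the largest difference of any elongation gene tested, at 0.31 ± 0.12 (SE; limma adjusted p = 0.257). Supt16, a subunit of the histone chaperone FACT, differed by -0.25 ± 0.12 (SE; limma adjusted p = 0.425).

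**Figure D4:**
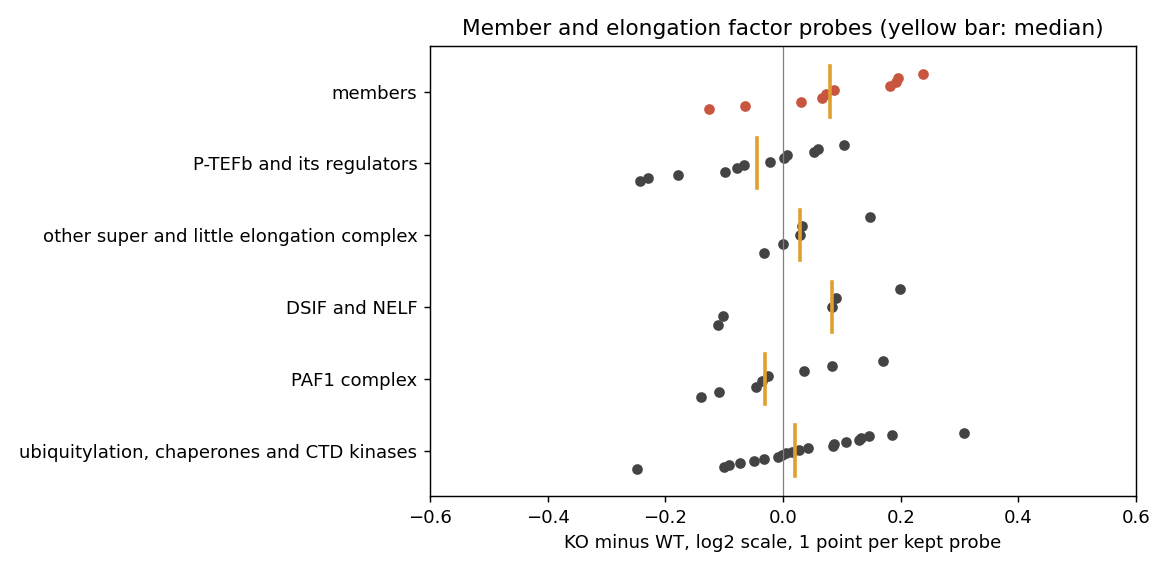
KO minus WT on the log2 scale for each tested probe of the members (red) and of the 5 elongation lists (black), with the median of each list in yellow. All points lie between -0.25 and 0.31, and no probe was called.

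The genes whose ratios tracked Dot1l most closely over the 8 arrays were Zbtb25, Pomt2 and H2-Q5, with Pearson r of 0.965, 0.963 and 0.963 and Spearman rho of 0.905, 0.952 and 0.929. H2-Q5 belongs to a family of near-identical genes, so its identity is uncertain. They are the best of 18145 probes over 8 arrays that share 1 reference, and 26 probes had an r over 0.9. Over the 6 arrays of low background the best were Trnt1, Bicd1 and Apip, and none of the 3 names was shared.

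**Figure D5:**
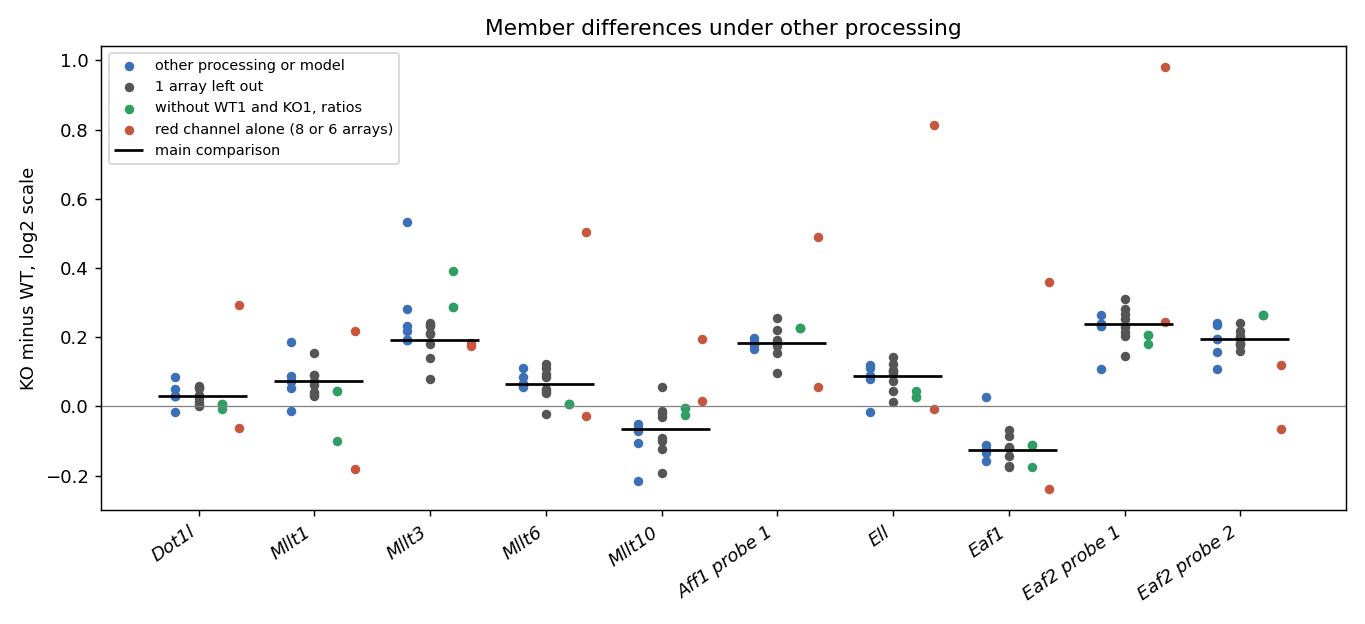
KO minus WT on the log2 scale for each tested member probe in the main comparison (black line) and under the alternatives, with points coloured by the kind of change. Points far from the line are mostly those of the red channel alone over 8 arrays, up to 0.98 for Eaf2 probe 1, and the Mllt3 point at 0.53 is the model with sex as a term.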

How the data were processed

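The 8 arrays were 2-colour Agilent arrays, and per the submitters' processing notes the scans were read by version 10.7.3.1 of Agilent Feature Extraction. The deposited intensity columns used here, the median red and green signals and local backgrounds, are raw per the file headers. The deposited log10 ratios are the software's processed red over green, and the deposited series values equal them within 0.497%. Other deposited columns are flags of 0 or 1.

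In R 4.3.3 with limma 3.58.1, signals were corrected with normexp (offset 50) and loess within arrays, with control spots at weight 0. Outlier spots (0.372%) were left out and no spot was saturated. Spots of a probe were averaged. Accessions were matched to RefSeq symbols (assembly GRCm38.p6, names only, since the headers name another build), giving 27509 of 55681 probes a symbol. A probe was tested if well above background in red on at least 4 of 8 arrays. All 18145 such probes entered lmFit and eBayes, at an adjusted threshold of 0.05. The fit was tested on simulated data. Depth does not apply to arrays, and their number limits the precision.

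The named genes were every member probe, up to 2 genes of smallest p per list and the 3 genes most like Dot1l. Beyond this rule, Cited1, Crym, Eya1, Wt1, Th, Six2 and Slc34a1 were named as markers after their values were seen. Members and lists were chosen with earlier results of these data known. Deviations of same-numbered samples correlated at 0.144, 0.366, 0.233 and 0.313 between WT and KO arrays of numbers 1 to 4. Pairs of unlike number ran from -0.551 (WT4 with KO3) to 0.359 (WT4 with KO1), and WT2 with KO3 gave 0.317. For WT1, WT2 and WT3 the same-numbered KO array correlated highest, and for WT4 it was KO1. Among the KO arrays, KO2 and KO4 correlated highest with the WT array of their own number, and KO1 and KO3 did not. Same-numbered arrays were thus often but not always the most alike. The number equals the slide column, so the replicate number was also tried as a block. Nothing in the labels says that same-numbered embryos share a litter.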

Additional observations from a re-analysis of the deposited data

Results flagged for a closer look

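Of the 20 groups of 4 arrays examined (10 member probes in WT and in KO), 1 held an array far from the other 3, and chance gives about 1 in 20. It was Ell, the RNA polymerase II elongation factor gene, on KO3: this array read 0.29 and the other KO arrays 0.12 to 0.14. The gap made up 0.881 of the whole range. This ratio depends on how close together the other 3 arrays lay, so it does not rank gaps by size. For Mllt3, WT2 read -0.41, a wider gap below WT1, WT3 and WT4 (-0.0014 to 0.087). Its ratio of 0.82 fell just short of the cutoff.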

How the results depend on the processing

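No member probe and no elongation list probe was called under any of the 20 alternatives, of which 3 (WT1 and KO1 left out together with the software's ratios, the red channel or the replicate block) were chosen after seeing the data. The count over all probes was 278 in the main comparison, 550 with the replicate block, 103 with the software's ratios, 13 with sex as a term, 1 with the red channel alone and 0 with median centring (203 probes with an unadjusted limma p under 0.05). It was 79 to 323 with 1 array left out: 155, 153 and 126 without WT1, WT2 and WT4, and 140, 172 and 79 without KO2, KO3 and KO4. Without WT1 and KO1 it was 228, and there 51 with the software's ratios, 141 with the red channel alone and 546 with the replicate block. The cause of these shifts was not tested.

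Mllt3, Aff1 and Eaf2 probe 1 kept their direction under each of the 20 alternatives. Some of these could not change it. Dropping the dim filter, taking the brightest probe per gene and the replicate block left these estimates as in the main comparison. Without WT1 and KO1 the replicate block likewise left them unchanged. With the software's ratios Dot1l turned to -0.015 and Mllt1 to -0.015. With the red channel alone, which shifts the median of all probes to 0.18, Mllt10 turned to 0.20, Eaf1 to 0.36 and Eaf2 probe 2 to -0.066, and the difference of the per-array member medians moved from its main value of 0.10 to 0.26. With sex as a term Ell turned to -0.017 and Eaf1 to 0.027. With 1 array left out Mllt6 ranged from -0.021 to 0.12 and Mllt10 from -0.19 to 0.055. Without WT1 and KO1, the software's ratios gave -0.0078 for Dot1l and -0.10 for Mllt1, and the red channel alone gave -0.062 for Dot1l, -0.18 for Mllt1, -0.027 for Mllt6, 0.016 for Mllt10 and -0.0065 for Ell. The limma adjusted p values of these turned differences ran from 0.554 to 0.998. The replicate block changed no member call (Dot1l 0.03, adjusted p = 0.903), and on the 6 arrays without replicate 1 none of the 3 genes most like Dot1l was shared.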
